A study of Homo sapiens with 4 samples.

Results

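Collagens are extracellular matrix proteins built from 3 α chains wound into a triple helix, and each chain is encoded by its own COL gene. The genes examined here were all GENCODE protein-coding genes whose symbol reads COL, a number, A and a number, which gave 44 of the 19970 protein-coding genes on chromosomes 1 to 22 and X (hg38). They comprised 11 genes of fibrillar chains, 6 genes of type IV chains, termed basement membrane here, and 27 other genes. The mark examined was acetylation of histone H3 at lysine 27 (H3K27ac), which is carried by nucleosomes of active promoters and enhancers.

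H3K27ac had been profiled by chromatin immunoprecipitation and sequencing (ChIP-seq) in MDA-MB-231 and Hs578T, established human triple-negative breast cancer cell lines with mesenchymal features, with 2 libraries per line. Per the labels, all 4 cultures were starved of serum for 8 h, received 10 ng/ml TWEAK, the cytokine ligand of the receptor Fn14, for 48 h, and were then kept without TWEAK for 72 h. The study's own account has a longer wash-off than the labels. Untreated cells were not analysed here, so the values describe a landscape after TWEAK removal and measure no effect of TWEAK. Each line is a single cultured line, and in bulk cultures a mark in fewer cells and a weaker mark per cell cannot be told apart.

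Lists of the same line were not the most alike. Only 209 peaks were in the list labelled MDA-MB-231 replicate 1, against 43353 in that labelled MDA-MB-231 replicate 2 and 46330 and 44920 in the Hs578T lists. Of the peaks labelled MDA-MB-231 replicate 2, 94.2% and 91.2% overlapped the Hs578T lists, as compared with 93.4% between the Hs578T lists themselves. Values are therefore given per list, and the 3 lists with over 40000 peaks are called the large lists. Read depth is unknown. Fold enrichment is the value over background deposited for each peak, and peaks are called higher or lower by it. The lists hold 9 columns per peak and no summit position. The value is thus not known to be a summit height, and it may be an average that depends on peak width. For collagen promoters, fold enrichment was compared between lists only by its percentile among all peaks of the same list. Fold enrichments themselves are given unscaled, and those of genes that process or bind collagen were also averaged over the large lists. Mesenchymal markers (VIM, CD44, AXL, ZEB1, SNAI2, FN1) had a promoter peak in every large list in 6 of 6 cases, as against 0 of 7 luminal markers, with EPCAM marked in 2 lists. Of 6 fibroblast markers, PDGFRB and FAP were marked, whereas PDGFRA, DCN, LUM and THY1 were not, and the leukocyte gene PTPRC had no promoter peak. Of the endothelial genes, PECAM1 was marked in 2 large lists, with a fold enrichment of 14.3 in MDA-MB-231 replicate 2 and 2.82 in Hs578T replicate 1, and CDH5 in none. Of the chondrocyte genes, SOX9 was marked in all 3 and ACAN in none.

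Fibrillar chains (types I, II, III, V, XI, XXIV and XXVII) form the banded fibres that give tissue its tensile strength. Type IV chains assemble into the sheet-like network of basement membranes, which epithelial tumour cells must cross to invade. The other group includes FACIT chains that decorate fibrils, network and filament formers, the anchoring fibril chain of type VII, the multiplexins of types XV and XVIII, and transmembrane collagens. Mesenchymal cells such as fibroblasts are the main source of fibrillar collagen in tissue.

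To ask which collagen promoters carried the mark, peaks overlapping the 1 kb on either side of the canonical start site were counted. The same 12 genes were marked in each of the 3 large lists: COL1A1 and COL5A1 among fibrillar genes, COL4A1, COL4A2 and COL4A5 among type IV genes, and COL7A1, COL8A1, COL12A1, COL13A1, COL18A1, COL6A1 and COL9A2 among the others. These were 27.3% of the collagen genes. In comparison, 58.1%, 58.2% and 56.4% of all protein-coding genes were marked in the lists labelled MDA-MB-231 replicate 2, Hs578T replicate 1 and Hs578T replicate 2, and 55.6% in every large list. The list labelled MDA-MB-231 replicate 1 marked 0 collagen promoters, at a background of 0.0601% of genes. The count was therefore 12 ± 0 (SD, n = 2) for Hs578T and 6 ± 8.49 (SD, n = 2) for MDA-MB-231. The latter spread lies between a list of 209 peaks and a list of 43353. In view of the overlaps above, a library may carry the wrong label, so these means follow the labels as given, and no test between the lines was made.

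**Figure D1:**
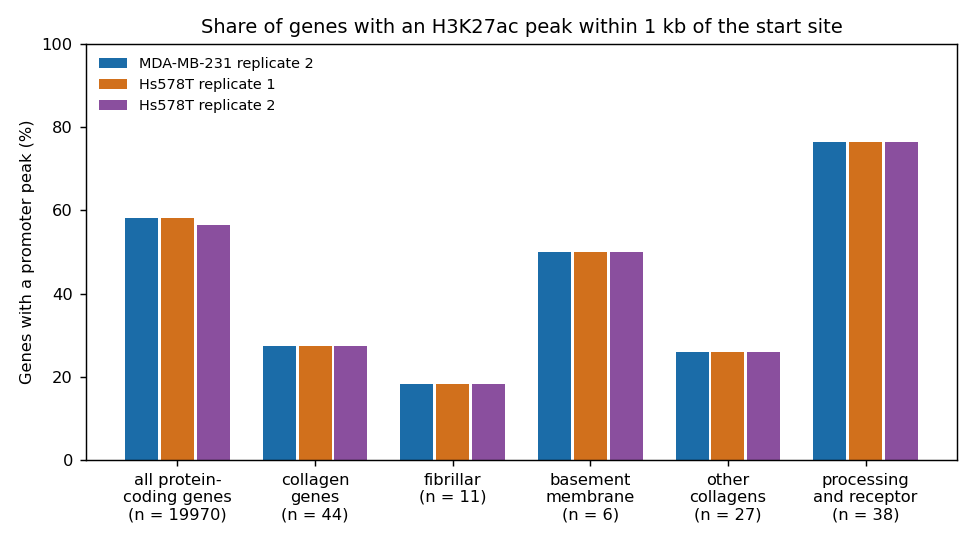
Percentage of genes with an H3K27ac peak within 1 kb of the start site (y axis) for all protein-coding genes, the 44 collagen genes, their 3 classes, and 38 collagen processing and receptor genes, in the 3 large lists (bar colours). The collagen bars stand at 27.3%, under all protein-coding genes at 56.4% to 58.2%, and the processing and receptor bars at 76.3%.

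By class, 2 of 11 fibrillar genes (18.2%), 3 of 6 type IV genes and 7 of 27 other genes (25.9%) were marked in every large list. The fibrillar and other shares thus lay below the share of all genes. The type IV share was the highest and close to the 55.6% of all genes. It rests on 6 genes, of which COL4A1 and COL4A2 share a single peak. The order of the classes rested on weak peaks. When only the strongest 50% of each list by score was kept, 6 collagen genes remained marked in every large list (COL1A1, COL7A1, COL8A1, COL12A1, COL13A1 and COL6A1), at a background of 40.8% of all genes. Over the large lists the type IV share averaged 11.1% under that setting, below the fibrillar share of 15.2% and the share of other genes at 18.5%. In the other group, 2 of 10 FACIT genes were marked, namely COL12A1 and COL9A2, together with 1 gene each of the short-chain network formers (COL8A1), multiplexins (COL18A1), transmembrane collagens (COL13A1) and beaded filament formers (COL6A1), and the anchoring fibril gene COL7A1. COL26A1 and COL28A1, which were left unclassified, were unmarked.

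None of the 44 genes changed its promoter state among the large lists, that is, 12 were marked in all and 32 in none. Among all protein-coding genes, 736 of 19970 (3.69%) were marked in some but not all large lists. Collagen genes are longer than most, with a median length of 145 kb against 27.5 kb over all genes. However, among the 26 collagen genes of at least 100 kb, 30.8% were marked in each large list, as compared with 58.6% to 60.6% of 3661 protein-coding genes of that length.

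Promoter peaks differed widely in width, as shown by the plot of peak extent around the start site, and in fold enrichment. COL8A1, which encodes a chain of the hexagonal network of Descemet's membrane, held the highest collagen promoter peak in each large list. Its fold enrichment was 17.0 in MDA-MB-231 replicate 2, 19.4 in Hs578T replicate 1 and 23.2 in Hs578T replicate 2, at percentiles of 92.2, 95.6 and 98.9. The peak was 5900, 6431 and 3128 bp wide and lay mostly upstream, reaching 5266, 5159 and 2538 bp before the start site.

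COL13A1, a transmembrane collagen of cell adhesions, held a peak of 7303, 9376 and 7371 bp that ran 6650, 8228 and 6508 bp into the gene. Its percentiles were 79.3, 83.5 and 81.9, a smaller span between the lists than that of any other marked collagen gene. COL6A1, a chain of the beaded filaments that surround cells, varied most in peak width. The peak was 4910 bp wide in MDA-MB-231 replicate 2, 9240 bp in Hs578T replicate 1 and 1283 bp in Hs578T replicate 2, with percentiles of 70.8, 91.4 and 66.8. Almost all of it lay upstream, so that only 542, 238 and 271 bp fell within the gene. Start sites of long non-coding RNAs are also annotated within its widest extent. In percentile, the Hs578T replicates thus lay further from each other than Hs578T replicate 2 lay from MDA-MB-231 replicate 2.

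**Figure D2:**
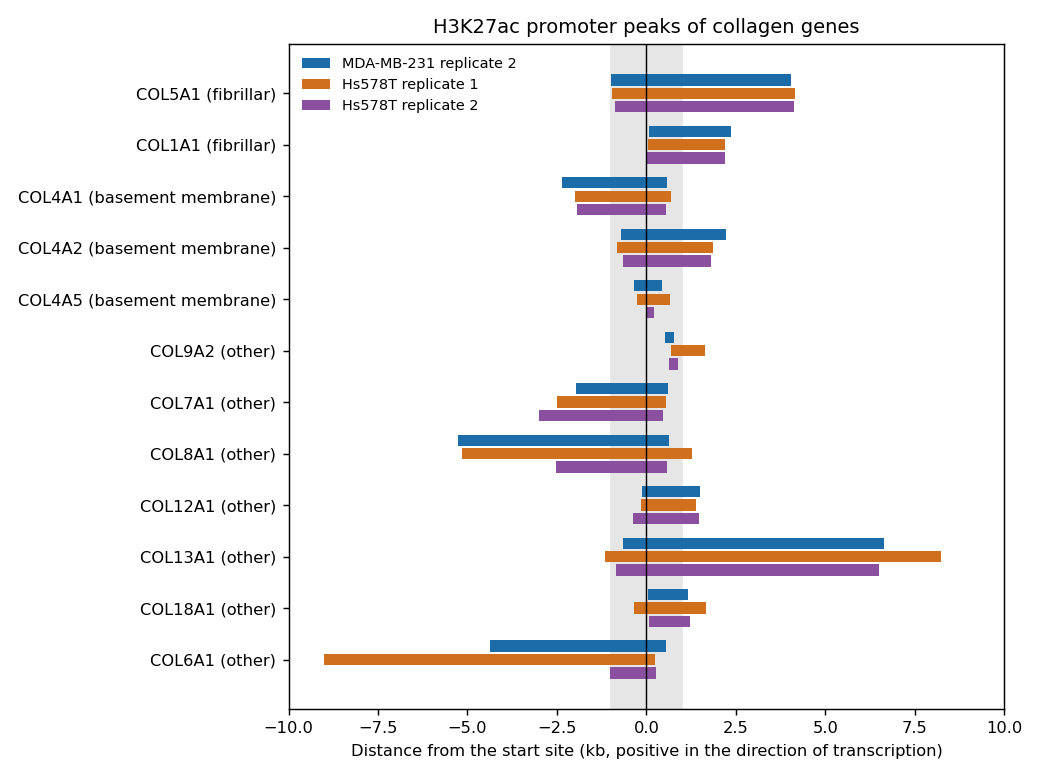
Extent of the promoter peak of each of the 12 marked collagen genes, as distance from the canonical start site in kb (x axis, positive in the direction of transcription), in 3 lists (bar colours). The grey band marks the window of 1 kb on either side; COL8A1 and COL6A1 extend upstream, COL13A1 and COL5A1 extend into the gene, and COL9A2 lies wholly downstream of the start site.

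The fibrillar promoter peaks lay mostly downstream. COL5A1, a chain of the type V collagen that nucleates fibrils, had a peak of 5026, 5100 and 4990 bp reaching 4046 to 4150 bp into the gene, at percentiles of 57.6, 59.8 and 49.1. COL1A1, the major chain of type I collagen, had a peak of 2293, 2133 and 2214 bp at percentiles of 71.8, 68.7 and 61.9. It began 77 and 52 bp downstream of the start site in MDA-MB-231 replicate 2 and Hs578T replicate 1, and 16 bp upstream of it in Hs578T replicate 2. A long non-coding RNA is also annotated with a start site there, and ChIP-seq does not assign the peak to either gene. COL1A2, whose chain completes the type I heterotrimer, had neither a promoter peak nor any peak in its body. The nearest peak to its start site was 2651, 2460 and 2506 bp away. With the 1 kb window, the marks of the type I partners thus differed in all 3 large lists. A window of 2.5 kb reached COL1A2 in Hs578T replicate 1 only.

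COL7A1, which forms the anchoring fibrils that fasten epithelia to the dermis, had a peak of 2565, 3049 and 3446 bp at percentiles of 70.8, 68.9 and 59.4. COL12A1, a FACIT chain that binds type I fibrils, had one of 1642, 1537 and 1834 bp at percentiles of 62.3, 69.6 and 64.9. Both were marked with or without the weaker 50% of peaks. COL18A1, the precursor of endostatin, had a peak of 1107, 1992 and 1158 bp at percentiles of 47.9, 51.0 and 25.2, beside an annotated start site of a long non-coding RNA.

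The type IV promoter peaks ranked below most other collagen promoter peaks, though not below all. COL18A1 and COL9A2 had lower percentiles than the peak shared by COL4A1 and COL4A2 in each large list. COL4A1 and COL4A2, which encode the ubiquitous type IV heterotrimer, share a divergent promoter with 126 bases between their start sites, and a single peak covered both, so that 12 marked genes had 11 distinct peaks. That peak was 2942, 2688 and 2481 bp wide, with fold enrichments of 5.86, 5.76 and 4.13 at percentiles of 52.3, 56.0 and 39.5. COL4A5 had a peak of 774, 911 and 220 bp at percentiles of 25.4, 4.75 and 4.86, close to the calling limit in the Hs578T lists. The other weak peak was that of COL9A2, a cartilage FACIT chain, with widths of 252, 960 and 237 bp at percentiles of 16.5, 6.21 and 23.2, located 523 to 691 bp downstream of the start site. It left the marked set with a window of 500 bp.

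**Figure D3:**
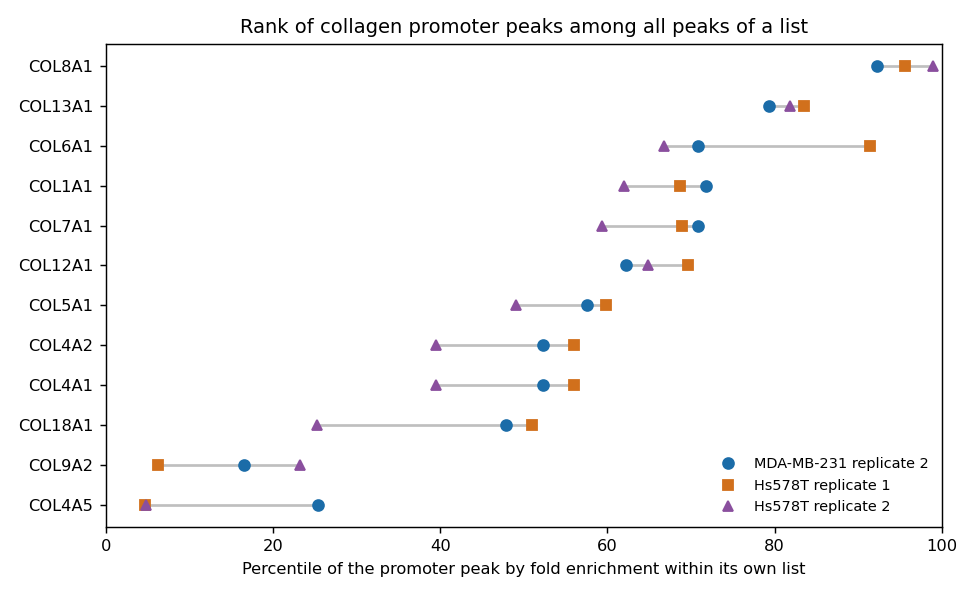
Percentile of each collagen promoter peak by fold enrichment among all peaks of its own list (x axis), for 12 genes (rows) and 3 lists (symbols, joined by a grey line). COL8A1 stands at 92.2 to 98.9, whereas COL4A5 and COL9A2 lie at 25.4 or less in every list.

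Over the 12 genes, the median promoter peak measured 2754, 2688 and 2348 bp, as compared with 1792, 1897 and 1804 bp over all marked genes. The median percentile of fold enrichment was 59.9, 64.3 and 54.2, against 72.2, 70.9 and 68.4 over all marked genes. Collagen promoter peaks were thus wider at the median and lower in rank than those of all genes in each large list. These medians are descriptions over 12 genes that share 11 peaks.

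The divergent pairs of type IV genes differed. COL4A3 and COL4A4, which encode chains of specialised basement membranes such as that of the kidney glomerulus, have 418 bases between their start sites and carried no peak there or in either body, and the nearest peak was 160 kb away in each large list. COL4A5 was marked, whereas the start site of COL4A6, separated from it by 1415 bases, lay 1075, 1157 and 1408 bp from the nearest peak. In each large list this nearest peak was the promoter peak of COL4A5. COL4A6 was counted as marked in every large list with a window of 2.5 kb or with all annotated start sites. With the wider window, the COL4A5 peak was thus counted for both genes. COL16A1, a FACIT chain with a nearest peak 2038 to 2099 bp away, was also gained with the wider window.

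Sequences of 4 promoters are shown because they place marked and unmarked promoters beside each other for both high and low CpG content. They were taken for COL4A5, COL15A1 and COL17A1 from RefSeq (GRCh38.p14), the 120 bases before the start site, and for COL4A1 and COL4A2 as the 126 bases between the start sites. Capitals mark matches on either strand. The first motif searched was the CCAAT box, spelled as in its name. The GC box was searched as GGGCGG. For the core promoter element named after it, the letters were TATAAA. The binding site of AP-1 was searched as TGACTCA. The positions were chr13:110307158-110307283 (plus strand), chrX:108439718-108439837 (plus strand), chr9:98943787-98943906 (plus strand) and chr10:104085881-104086000 (minus strand).
COL4A1-COL4A2, marked: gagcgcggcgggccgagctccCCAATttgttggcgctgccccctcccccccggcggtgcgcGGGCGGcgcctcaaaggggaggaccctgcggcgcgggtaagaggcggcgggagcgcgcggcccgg
COL4A5, marked: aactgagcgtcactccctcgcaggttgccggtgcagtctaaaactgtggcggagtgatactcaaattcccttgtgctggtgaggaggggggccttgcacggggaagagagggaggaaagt
COL15A1, unmarked: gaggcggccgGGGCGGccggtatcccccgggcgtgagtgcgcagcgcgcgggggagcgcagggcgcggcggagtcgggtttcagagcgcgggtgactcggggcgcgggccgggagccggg
COL17A1, unmarked: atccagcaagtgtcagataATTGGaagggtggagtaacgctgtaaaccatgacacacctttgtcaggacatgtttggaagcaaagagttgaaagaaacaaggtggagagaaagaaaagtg

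The interval between COL4A1 and COL4A2 had 20 CpG dinucleotides and that of COL15A1 22, as compared with 5 for COL4A5 and 1 for COL17A1. Over 300 bases around the start site (250 before, 50 after), 9 of 24 collagen genes with a CpG ratio, observed over expected, of at least 0.6 were marked in every large list (37.5%). Among all protein-coding genes at that ratio the share was 73.7%. Below the limit, 3 of 20 collagen genes were marked (15.0%), against 18.3% of all genes. The collagen share thus lay below that of all genes at high CpG content and close to it at low CpG content, as a description with no test. A GC box was found in 10 of 12 marked and 18 of 32 unmarked collagen promoters, as compared with 75.4% of all marked and 41.1% of all unmarked promoters of that length. TATAAA occurred in 3 of 12 and 5 of 32 (15.6%), against 4.93% of all marked and 16.6% of all unmarked promoters. CCAAT occurred in 4 of 12 and 10 of 32, against 36.9% and 34.8%. The AP-1 letters occurred in that window of COL6A1 only, and in 3.58% of all promoters.

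To see where the mark lay beyond the promoters, bases covered by peaks were summed over each annotated gene. At least 1 covered base was present in 28, 29 and 27 of the 44 bodies, or 63.6%, 65.9% and 61.4%, as compared with 68.2%, 68.8% and 67.3% of all genes. The median share of the body covered was 0.779%, 1.00% and 0.831%, against 2.64%, 2.93% and 2.57% over all genes. Among genes of at least 100 kb the medians were 0.656%, 0.752% and 0.673% for collagens and 1.72%, 1.92% and 1.78% for all genes. By class, the median over Hs578T was 0.518% ± 0.00257 (SD, n = 2) for fibrillar, 0.256% ± 0.0751 (SD, n = 2) for type IV and 1.32% ± 0.0864 (SD, n = 2) for other genes. The list labelled MDA-MB-231 replicate 2 gave 0.501%, 0.268% and 1.58%, the same order. The order depended on the measure. When covered bases were pooled over a class, type IV genes stood highest, with 3.43%, 3.88% and 3.77% of their summed length covered in the 3 large lists. Pooled coverage was 2.22% in each list for fibrillar genes and 2.42%, 2.63% and 2.43% for other genes. The type IV sum came mostly from COL4A2.

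**Figure D4:**
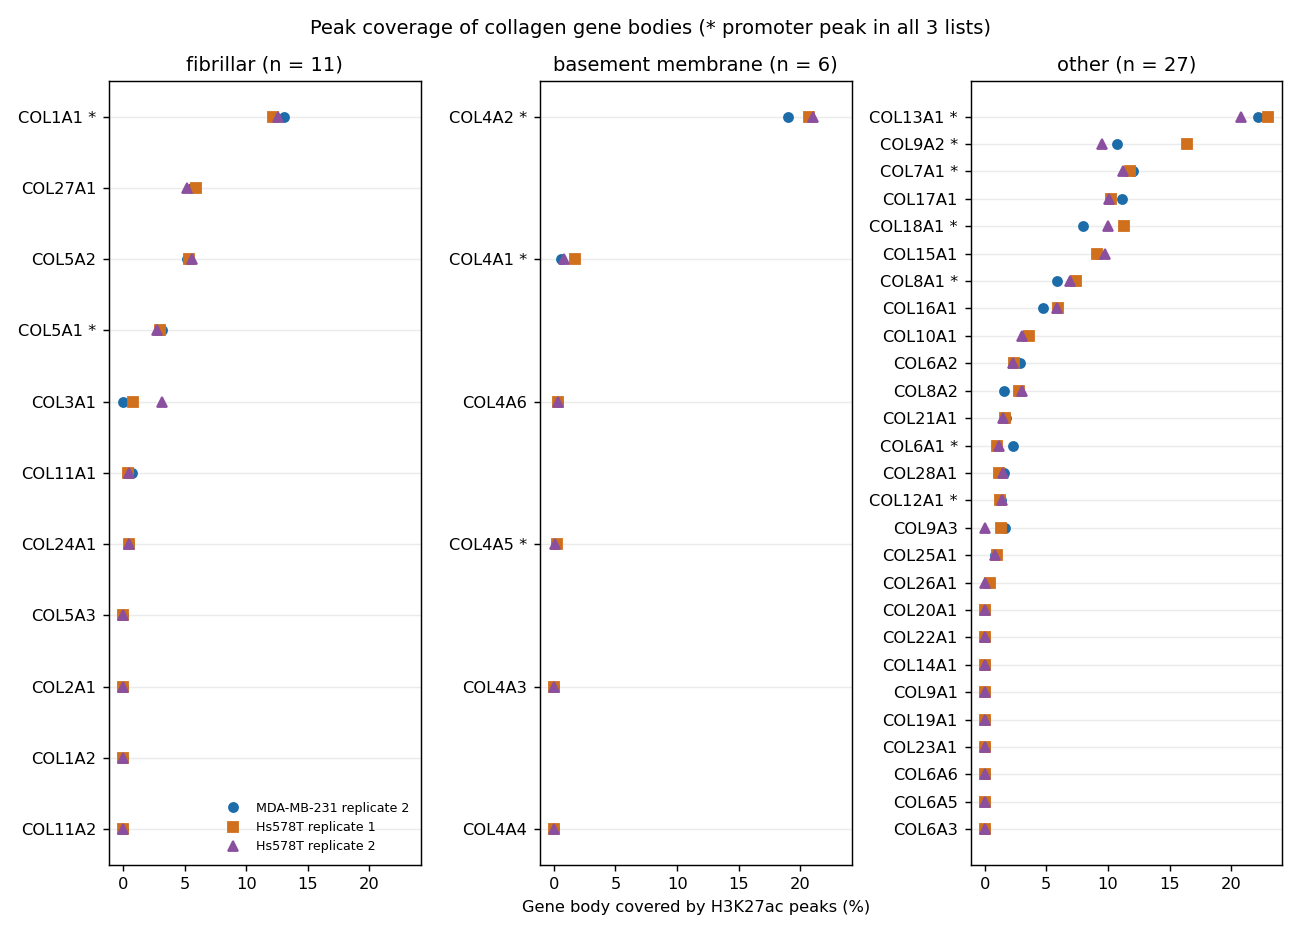
Percentage of each collagen gene body covered by H3K27ac peaks (x axis) for the 44 genes in 3 panels by class, in 3 lists (symbols); an asterisk marks genes with a promoter peak in all 3. COL13A1 and COL4A2 reach about 20% in each list, whereas 15 genes stand at 0 in every list.

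Coverage was concentrated in a few genes. COL4A2 had 39467, 42899 and 43514 covered bases in MDA-MB-231 replicate 2, Hs578T replicate 1 and Hs578T replicate 2, or 19.0%, 20.7% and 21.0% of its body, in 14, 12 and 15 peaks. It ranked 86, 95 and 81 by covered bases among all 19970 genes, a measure that favours long genes. By share of the body covered, COL4A2 lay at percentiles of 88.2, 88.1 and 89.5 among all genes. COL13A1 had 35919, 37335 and 33800 covered bases, or 22.1%, 22.99% and 20.8%, in 9, 11 and 8 peaks, and ranked 104, 135 and 146. Its percentiles by share covered were 90.2, 89.4 and 89.4. Together COL4A2 and COL13A1 held 43.9%, 43.3% and 43.9% of all covered bases in collagen gene bodies.

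COL4A1, the divergent partner of COL4A2, had 920, 2750 and 1311 covered bases, or 0.582%, 1.74% and 0.829%. The coverage on the COL4A2 side exceeded that on the COL4A1 side in each large list. COL8A1 had 9406, 11903 and 11151 covered bases and COL18A1 had 8611, 12223 and 10885. In COL5A1, 6488, 6043 and 5576 bases were covered, mostly by the promoter peak. COL1A1 had 2293, 2133 and 2199 covered bases, or 13.1%, 12.2% and 12.5% of a short gene, all in its promoter peak. The body of COL12A1 likewise held its promoter peak alone, with 1.26% to 1.38% covered, and that of COL4A5 had 0.168%, 0.253% and 0.0823% covered. COL7A1 had 12.04%, 11.8% and 11.2% covered, and the second of its peaks lay at the 3′ end, where the neighbouring gene UCN2 starts. COL9A2 had 10.7%, 16.4% and 9.51% covered, and COL6A1 2.33%, 1.02% and 1.16%.

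**Figure D5:**
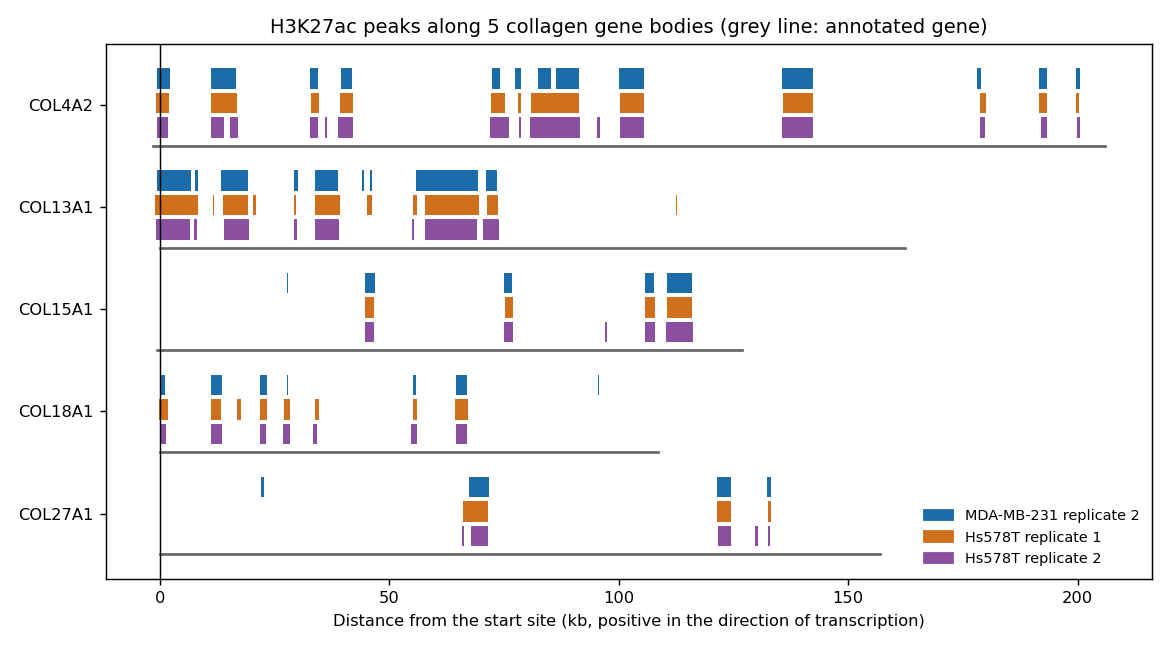
Peaks along the bodies of COL4A2, COL13A1, COL15A1, COL18A1 and COL27A1, as distance from the canonical start site in kb (x axis), in 3 lists (bar colours); the grey line under each is the annotated gene. Of the merged regions, 12 of 15 in COL4A2, 6 of 11 in COL13A1, 4 of 6 in COL15A1, 6 of 9 in COL18A1 and 3 of 5 in COL27A1 were called in all 3 lists, and COL15A1 and COL27A1 have none at the start site.

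Several genes without a promoter peak carried peaks in their introns. A covered base was present in 16, 17 and 15 of the 32 unmarked gene bodies (46.9% to 53.1%). The shares were 25.5%, 26.4% and 25.5% for all 8122 genes unmarked in every large list. Those were shorter, with a median of 18.6 kb against 145 kb. Pooled over summed length, coverage was 1.16%, 1.17% and 1.15% for the 32 genes, below 1.26%, 1.41% and 1.30% for the 8122. On average, COL17A1, COL15A1 and COL27A1 had the largest covered shares of the 32. COL17A1, a transmembrane collagen of hemidesmosomes, had 6089, 5607 and 5522 covered bases, or 11.2%, 10.3% and 10.1%, in 2 peaks centred in introns 20 and 27, of which the latter reached fold enrichments of 17.1, 15.0 and 14.3. COL15A1, a multiplexin of the basement membrane zone, had 11657, 11642 and 12421 covered bases, or 9.13%, 9.12% and 9.73%, with its nearest peak 27.6, 44.6 and 44.6 kb from the start site. COL27A1, a fibrillar chain of cartilage, had 8821, 9286 and 8189 covered bases, or 5.62%, 5.92% and 5.22%. Its highest peak, in intron 14, reached fold enrichments of 18.5, 15.2 and 14.4. In COL5A2, 10077, 10410 and 10912 bases were covered, and 3 of its regions lay upstream of the canonical start site within longer transcripts.

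COL16A1, also unmarked, had 4.69%, 5.94% and 5.83% covered. Smaller shares were present in COL10A1, COL6A2, COL8A2, COL21A1, COL28A1, COL25A1, COL11A1, COL24A1 and COL4A6, each with peaks in all 3 large lists. Peaks in COL26A1 and COL9A3 were absent from Hs578T replicate 2. COL3A1, the type III chain that accompanies type I in soft tissue, had 0, 326 and 1215 covered bases, with peaks in the Hs578T lists alone. In contrast, 15 gene bodies held no peak in any large list, namely COL1A2, COL2A1, COL5A3, COL11A2, COL4A3, COL4A4, COL6A3, COL6A5, COL6A6, COL9A1, COL14A1, COL19A1, COL20A1, COL22A1 and COL23A1. These include the type II chain of cartilage and COL6A3, the third chain of the type VI trimer with COL6A1 and COL6A2.

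For the 32 unmarked genes, the nearest peak lay at a median of 37.0, 39.8 and 40.5 kb from the start site. For all unmarked protein-coding genes it was 35.1, 34.1 and 33.9 kb. In 11, 9 and 10 of the 32 genes (34.4%, 28.1% and 31.2%) the nearest peak was over 100 kb away, against 25.3%, 24.8% and 24.2% of all unmarked genes, with COL22A1 at 301 kb in each large list.

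When peaks of the 3 large lists were merged, collagen gene bodies held 111 regions, with the one shared by COL4A1 and COL4A2 counted in both genes. Of these, 72 (64.9%) were called in all 3 lists, and 96 (86.5%) were intronic by midpoint. Regions called in all 3 had a median width of 2028 bp, against 520 bp for those called in 1 or 2. The genes without a promoter peak held 50 of the regions, of which 32 were called in all 3 lists. Regions were not counted in this way over all gene bodies. These counts therefore have no background and show no trait particular to collagen genes.

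AP-1 is a family of FOS and JUN dimers that bind the near-palindrome TGACTCA. The letters occurred on either strand in 51 of 88 peaks in collagen gene bodies in MDA-MB-231 replicate 2 (58.0%, 95% Wilson interval 47.5 to 67.7), in 47 of 91 in Hs578T replicate 1 (51.6%, 41.5 to 61.6) and in 49 of 91 in Hs578T replicate 2 (53.8%, 43.7 to 63.7). Among peaks in all gene bodies the shares were 42.6%, 42.8% and 42.0%. These intervals cover counting error only and treat peaks as independent. Many peaks lie in the same gene, with 14 in COL4A2 and 9 in COL13A1 in MDA-MB-231 replicate 2. The lists also share most of their peaks. Far from start sites the shares came closer, at 60.8%, 53.2% and 55.1% of collagen peaks over 2.5 kb from every start site, as compared with 51.8%, 50.5% and 49.98% of all such peaks. Within collagen bodies, the letters occurred 45.6, 41.1 and 43.9 times per 100 kb of peak and 16.2, 16.3 and 16.3 times per 100 kb outside peaks. For all gene bodies these densities were 34.4, 33.3 and 34.0 inside and 14.9 outside in each list.

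The widest stretches covered by all 3 large lists outside the promoter window are shown by their AP-1 matches for COL13A1, COL4A2, COL15A1 and COL27A1, as these genes carry the largest intronic clusters among marked and unmarked members. The stretch in COL13A1 measured 11411 bp (chr10:69859619-69871029), that in COL4A2 6517 bp (chr13:110442984-110449500), that in COL15A1 5429 bp (chr9:99054461-99059889) and that in COL27A1 3705 bp (chr9:114223263-114226967). They began 57.7, 136, 111 and 67.7 kb after the start sites. All matches in these stretches are printed with 12 bases on either side, on the plus strand of hg38, with the AP-1 letters in capitals.
COL13A1 at 61.9 kb: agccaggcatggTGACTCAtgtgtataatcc
COL13A1 at 62.7 kb: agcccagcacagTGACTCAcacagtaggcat
COL4A2 at 138 kb (first): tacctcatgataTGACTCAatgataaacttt
COL4A2 at 138 kb (second): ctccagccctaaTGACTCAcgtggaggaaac
COL4A2 at 141 kb: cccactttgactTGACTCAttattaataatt
COL15A1 at 116 kb: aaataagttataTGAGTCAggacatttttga
COL27A1 at 68.5 kb: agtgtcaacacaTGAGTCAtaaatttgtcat
COL27A1 at 70.1 kb: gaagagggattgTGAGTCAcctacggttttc

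In the list labelled MDA-MB-231 replicate 1, the only collagen gene body with a peak was that of COL18A1. The peak was 260 bp wide with a fold enrichment of 3.88, lay 95.4 kb after the start site, and overlapped a peak of 1 large list. A second peak, of 359 bp, lay at −34.2 kb from the start site of COL8A1 and overlapped none.

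Finally, genes that modify, export, cut, cross-link or bind collagen chains were examined. Of 38 such genes, 29 (76.3%) had a promoter peak in every large list, as compared with 55.6% of all genes. All 5 lysyl hydroxylation and glycosylation genes, all 3 chaperone and export genes and all 5 lysyl oxidases of the cross-linking group were marked, as were 7 of 9 prolyl hydroxylation genes, 6 of 8 receptors and 3 of 8 propeptide cleavage genes. The highest mean fold enrichments were those of P4HB at 11.4, a subunit of prolyl 4-hydroxylase, and of ITGB1 at 11.01 and PLOD2 at 10.98, which encode the β1 integrin and a lysyl hydroxylase. SERPINH1, the collagen chaperone HSP47, had fold enrichments of 10.8, 10.5 and 10.0. The 9 genes without a promoter peak in any large list were P4HA3, P3H3, TLL1, TLL2, PCOLCE, ADAMTS2, ADAMTS14, DDR2 and ITGA11. DDR2 and ITGA11 are receptors for fibrillar collagen, and ADAMTS2, ADAMTS14 and PCOLCE act on procollagen. Other genes of these groups were marked in every large list. These were the receptors DDR1, ITGA1, ITGA2, ITGA10, ITGB1 and MRC2, and BMP1, PCOLCE2 and ADAMTS3 of the propeptide cleavage group. With the strongest 50% of each list, 19 of the 38 genes were marked in every large list, at the background of 40.8%.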

How the data were processed

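H3K27ac ChIP-seq peak lists of 4 libraries were used, grouped by sample title. The authors trimmed reads with Trimmomatic, mapped them to hg38 with Bowtie2, called peaks per library against input with MACS2 and removed blacklisted regions; versions were not given in the sources used here. The deposited lists hold, per peak, a score, the fold enrichment over background (a ratio, column 7) and −log10 of p and q. Because depth is unknown, peaks near the calling limit can pass in one library and miss in another. Genes and canonical start sites came from GENCODE release 44. Overlap was counted from 1 base, and the highest peak in the promoter window was described. Values were computed with Python 3.11.15, numpy 2.4.6 and pandas 2.3.3; the scripts were tested on simulated data. RefSeq promoters were matched by symbol for 32 of the 44 genes, the others being COL1A1, COL1A2, COL2A1, COL3A1, COL5A2, COL6A1, COL6A5, COL8A1, COL9A3, COL14A1, COL20A1 and COL22A1. GC and motif counts used hg38 around the GENCODE start site.

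All members had a promoter state. Named values were given for genes with a promoter peak in every large list, the 5 with the most covered bases and the 3 unmarked genes with the largest covered share. Of the processing list, the unmarked genes, the 3 with the highest mean fold enrichment, and the marked receptors and propeptide cleavage genes were named. COL5A2, COL3A1, COL16A1, COL22A1 and SERPINH1 were given values after these had been seen. The classes, gene lists and rules were chosen with earlier results of these data known. No test was made: 2 libraries per line allow an exact two-sided permutation p-value of 0.333 at the smallest.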

Additional observations from a re-analysis of the deposited data

How the results depend on the processing

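Of 98 recomputed values for 19 results, 63 stayed within 1.5-fold for counts or within the spread of the Hs578T replicates for other values, and 35 moved. For shares of genes with a promoter peak that spread was 0, so any change counted as moved. Counts in the list labelled MDA-MB-231 replicate 1 were 0 under every setting and counted as unchanged. The tally depends on these limits. None of the 19 results has a sign that could reverse. The order of the classes did turn with the strongest 50% of each list, for promoter shares from type IV, other, fibrillar to other, fibrillar, type IV, and for median body coverage fibrillar genes then stood above other genes. No paired analysis was possible because the results come from no test, and same-numbered libraries share only a number. With the strongest 50% of each list, collagen genes with a promoter peak numbered 7 in MDA-MB-231 replicate 2 and 6 in Hs578T replicate 2 (means 3.5 and 7.5 for MDA-MB-231 and Hs578T), 6 in every large list, with 3 differing between large lists. The shares were 15.2%, 11.1% and 18.5% for fibrillar, type IV and other genes, and median body coverage fell to 0.111%, 0% and 0%; 19 processing and receptor genes were marked. With a window of 2.5 kb the class shares were 21.2%, 66.7% and 32.1%, and 2 genes, COL1A2 and COL9A3, differed between large lists. The type IV gain in that window was COL4A6, which was reached by the promoter peak of COL4A5. The 500 bp window gave 22.2% for other genes. All basic start sites gave 66.7% for type IV. The share of all genes was not computed for these windows or for all basic start sites. These class shares thus cannot be set against the share of all genes given for the 1 kb window. With COL7A1, COL15A1 and COL18A1 moved to a basement membrane zone, the shares were 55.6% for that class and 20.8% for other genes, with median coverage of 1.05% and 1.17%. Adding 10 kb on either side of the body gave median coverage of 1.26%, 0.490% and 1.60%. On average over the large lists, AP-1 letters were found in 28.2% of collagen peaks when only the central 500 bp was read. The shares in MDA-MB-231 replicate 2, Hs578T replicate 1 and Hs578T replicate 2 were 35.2%, 23.1% and 26.4%. For peaks in all gene bodies they were 21.8%, 21.1% and 21.3%. Of distal collagen peaks, 56.4% held the letters on average, against 54.5% of all collagen peaks read whole. Genes of at least 100 kb, a setting chosen after seeing the data, gave 30.8% marked. Leaving out one library gave a mean for MDA-MB-231 of 0 to 12 marked genes, median coverage of 0.509% to 0.518% for fibrillar, 0.235% to 0.288% for type IV and 1.32% to 1.48% for other genes, and AP-1 shares of 52.7% to 55.9%; the 12 marked genes and the class shares were unchanged by leaving out any large list. The cause of these shifts was not tested. Read depth is unknown, and the weak peaks at COL4A5 and COL9A2 lie near the calling limit.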
